A study of Rattus norvegicus with 20 samples.

Results

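Fc receptors are the proteins by which leukocytes bind the constant part of antibodies. The 9 genes followed here, the receptors Fcgr1a, Fcgr2a, Fcgr3a and Fcgr2b, the receptor chain Fcer1g, the IgG transporter Fcgrt and the kinases Syk, Lyn and Fgr, were measured in inguinal white adipose tissue (iWAT), a subcutaneous fat depot. They were chosen by name, as the 9 rows of the gene count table that carry these symbols among 32545 rows in all. The table holds RNA sequencing reads of 20 male ZSF1 rats, 5 in each of 4 groups, and every rat ate Purina 5008, a high carbohydrate chow. The Lean group was ZSF1 lean rats with no treatment, and these are not homozygous for leptin receptor deficiency. The Obese group was untreated ZSF1 obese rats (Lepr fa and Lepr cp alleles), which lack leptin receptor function and overeat. The Food matched group was ZSF1 obese rats under calorie restriction, given the amount of chow that the Cmpd 1 group had eaten the week before. Their phenotype label reads lean, against their titles, and they were taken as obese. The Cmpd 1 group was ZSF1 obese rats whose chow held Cmpd 1, an inhibitor of the protein kinases PKCα and PKCβ, at about 50 mg per kg of body weight a day. Rats entered the study at 21 to 22 weeks of age and the study ran for 10 weeks. All 3 obese groups carry the leptin receptor deficiency, so obesity and that mutation cannot be told apart.

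An activating Fc receptor that has bound antibody-coated particles passes the signal through the tyrosine motifs (ITAMs) of the shared chain encoded by Fcer1g. Src family kinases such as Lyn and Fgr phosphorylate these motifs, and the kinase Syk docks on them and starts phagocytosis, the oxidative burst and cytokine release. The receptor encoded by Fcgr2b carries an inhibitory motif instead and recruits the phosphatase SHIP-1. In fat these genes are known mainly from macrophages, which surround dying adipocytes in obesity. Fcgrt encodes the large chain of the neonatal Fc receptor, which rescues IgG and albumin from breakdown and is made in many cell types.

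Depth was 50604956 to 68048796 counted reads in Lean, 56743417 to 70206686 in Obese, 54649679 to 74784655 in Food matched and 31716457 to 65759306 in Cmpd 1 libraries, the lowest being Cmpd 1 rat 4. Values are CPM, counts per 1e6 reads after TMM scaling of the library sizes. Skeletal muscle genes stood high in Lean rats 1 and 2, where 5 muscle markers summed to as much as 4220 CPM, against a Lean median of 8.78 CPM, and reached 63.8 CPM in 1 Food matched library. The adipocyte markers were high in every library, with 6 of them summing to 10600 to 17900 CPM. The 4 B cell markers summed to 5.74 to 11.4 CPM over all libraries, most of it Cd22 (6.86 to 8.87 CPM in the group means), while Ms4a1 and Pax5 averaged at most 0.221 CPM in any group. The 6 neutrophil markers summed to 89.3 to 572 CPM, most of it Mpo (98.9 to 496.5 CPM in the group means), while Elane averaged at most 0.0579 CPM. Cd22 and Mpo were named after their values were seen.

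Promoter sequences of the members are shown first because 7 of the members moved together and the members that did not can be set beside them. RefSeq promoter entries (build GRCr8) were matched for 5 of the 9 members, and Fcgr1a, Fcgr2b, Fcer1g and Lyn have no entry in the table used. The 250 bases before the start are given for Fcgr3a (chr13:85782386-85782635, plus strand), Syk (chr17:12813274-12813523, minus strand), Fgr (chr5:150473547-150473796, plus strand) and Fcgrt (chr1:104720027-104720276, minus strand), each on the strand of its gene. Capitals mark GAGGAA, the core bound by the myeloid factor PU.1, or its reverse complement TTCCTC, searched on both strands.
Fcgr3a: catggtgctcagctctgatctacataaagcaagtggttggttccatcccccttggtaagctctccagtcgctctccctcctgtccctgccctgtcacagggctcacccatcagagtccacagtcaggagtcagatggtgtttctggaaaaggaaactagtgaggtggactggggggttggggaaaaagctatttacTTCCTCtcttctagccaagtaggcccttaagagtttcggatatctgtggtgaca
Syk: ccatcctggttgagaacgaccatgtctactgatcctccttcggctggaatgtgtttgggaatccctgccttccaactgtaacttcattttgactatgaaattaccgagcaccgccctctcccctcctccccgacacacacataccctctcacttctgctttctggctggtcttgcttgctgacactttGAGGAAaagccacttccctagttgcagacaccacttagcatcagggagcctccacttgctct
Fgr: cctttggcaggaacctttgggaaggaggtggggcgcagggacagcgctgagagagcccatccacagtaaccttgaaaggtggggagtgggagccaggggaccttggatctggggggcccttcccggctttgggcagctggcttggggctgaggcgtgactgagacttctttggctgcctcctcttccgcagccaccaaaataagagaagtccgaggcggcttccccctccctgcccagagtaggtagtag
Fcgrt: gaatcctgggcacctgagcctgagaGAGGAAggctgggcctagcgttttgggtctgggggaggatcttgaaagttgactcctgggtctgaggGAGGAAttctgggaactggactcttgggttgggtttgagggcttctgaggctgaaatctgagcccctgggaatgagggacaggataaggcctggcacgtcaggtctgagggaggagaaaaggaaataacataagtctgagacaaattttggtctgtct
The window held 1 match in Fcgr3a, 1 in Syk, 0 in Fgr and 2 in Fcgrt, and 23.3% of all 33469 promoter windows of this length held at least 1. The longer form GAGGAAGT, which contains GAGGAA, was found in Fcgr3a alone among these members, on the opposite strand, and in 2.04% of all windows. The marked TTCCTC within that match begins 54 bases before the start. These are matches of letters, and no binding was measured. The 2 entries of Fcgr2a held 2 matches and 0 matches of GAGGAA.

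Before the values, the gene models behind the rows have to be described, since Fc receptor genes lie in a cluster of similar copies. In the table (rn6), Fcgr2b runs from 89327794 to 89433815 on the minus strand of chromosome 13, a span of 106 kb, and the whole of Fcgr3a (89385859 to 89396051, plus strand) lies inside it. In RefSeq's order on GRCr8, Fcgr2b, Fcgr3a and Fcgr2a follow each other as separate genes, and Fcgr2a is succeeded by the copy Fcgr2al1 and the transcribed pseudogene Fcgr2a-ps1. The table's Fcgr2b row continues for 37.8 kb past Fcgr3a, on the side where RefSeq has Fcgr2a, while the row named Fcgr2a (91168973 to 91198036, minus strand) lies 1740 kb away. Reads of the activating receptor that RefSeq calls Fcgr2a may therefore have been counted in the Fcgr2b row, and the values of that row cannot be given to the inhibitory receptor alone. RefSeq also lists CD16-2 and Fcgr4 as synonyms of Fcgr3a, and Fcgr3a as a synonym of Fcgr2a, so the names below are those of the table. The kit kept strand. Whether the counting used it is not given, so reads of Fcgr3a and of the Fcgr2b row around it cannot be told apart with certainty.

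**Figure D1:**
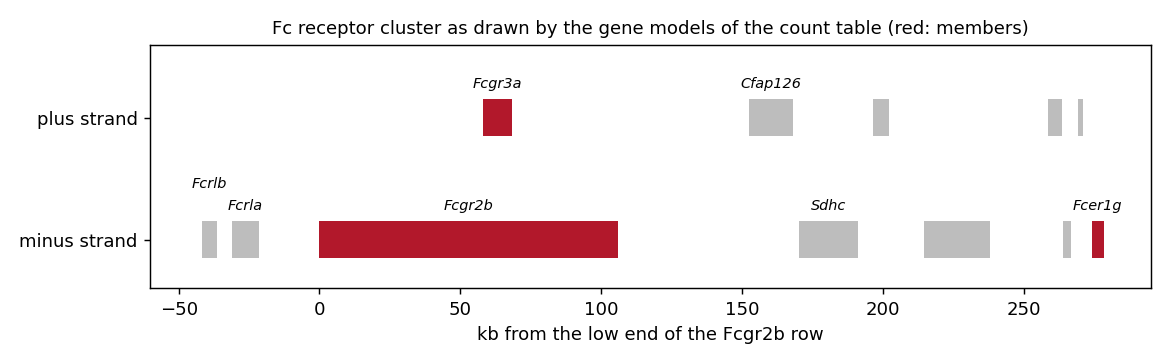
Protein-coding gene models of the count table around the Fc receptor cluster, by strand, with the distance in kb from the low end of the Fcgr2b row on the x axis and members in red. The Fcgr2b bar spans 106 kb and encloses Fcgr3a, and Fcer1g begins 168 kb beyond its far end.

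The row named Fcgr2a held almost no reads. It had 3, 0, 6, 0 and 0 reads in Lean rats 1 to 5, 0, 5, 6, 4 and 0 in Obese, 0, 9, 5, 5 and 3 in Food matched and 2, 0, 0, 1 and 6 in Cmpd 1 rats. At 55 reads over 20 libraries no difference was detectable, and no fold change is given. This row lies wholly inside another row on the same strand, LOC103693683, which is Fcgr2a-ps1 by its RefSeq gene ID and held 12296 reads. That row, which was looked up after its values were seen, was at 5.10 ± 0.311 CPM in Lean, 12 ± 1.63 in Obese, 14.8 ± 1.99 in Food matched and 8.63 ± 1.33 in Cmpd 1 rats (SD, n = 5 each). Reads that touch both rows can be lost in counting, so the near absence of Fcgr2a reads does not show that this receptor was not made.

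The first comparison, Obese versus Lean, asks what the disease state changes. In Obese rats 7 members were higher, Fcgr3a by 4.65-fold, Syk by 3.55-fold, Fcer1g by 3.07-fold, Fcgr1a by 2.94-fold, Fgr by 2.4-fold, Fcgr2b by 1.84-fold and Lyn by 1.79-fold. In each of these 7 the lowest Obese rat was above the highest Lean rat, as in 17.7% of all genes tested. Fcgrt did not pass the test. A member was called a differentially expressed gene (DEG) with a fold over 1.5 and an adjusted p under 0.05 in edgeR's quasi-likelihood test, Benjamini-Hochberg adjusted over all 17653 genes tested. By this rule 11.3% of all genes were DEGs higher in Obese rats and 11% lower, beside 7 and 0 of the 9 members. The median log2 fold change was 1.26 over the members and −0.01 over all genes. In bulk tissue, more cells of a type and more RNA per cell cannot be told apart, nor can fewer cells and less RNA per cell where a value is lower.

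The second comparison, Cmpd 1 versus Food matched, asks what Cmpd 1 changes beyond food intake. In Cmpd 1 rats 4 members were lower DEGs, Fcgr3a at 3.18-fold, Fcgr2b at 2.18-fold, Fcer1g at 1.64-fold and Syk at 1.5-fold. Fcgr1a and Lyn also passed the adjusted p, as 11.4% of all genes did in the lower direction, but their folds of 1.48 and 1.41 lay under the threshold. Of all genes 4.65% were lower DEGs and 1.54% higher, beside 4 and 0 of the 9 members. All Cmpd 1 rats were below all Food matched rats in 6 members and in 7.86% of all genes, and Fgr and Fcgrt did not pass the test. The median log2 fold change was −0.59 over the members and 0.01 over all genes.

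**Figure D2:**
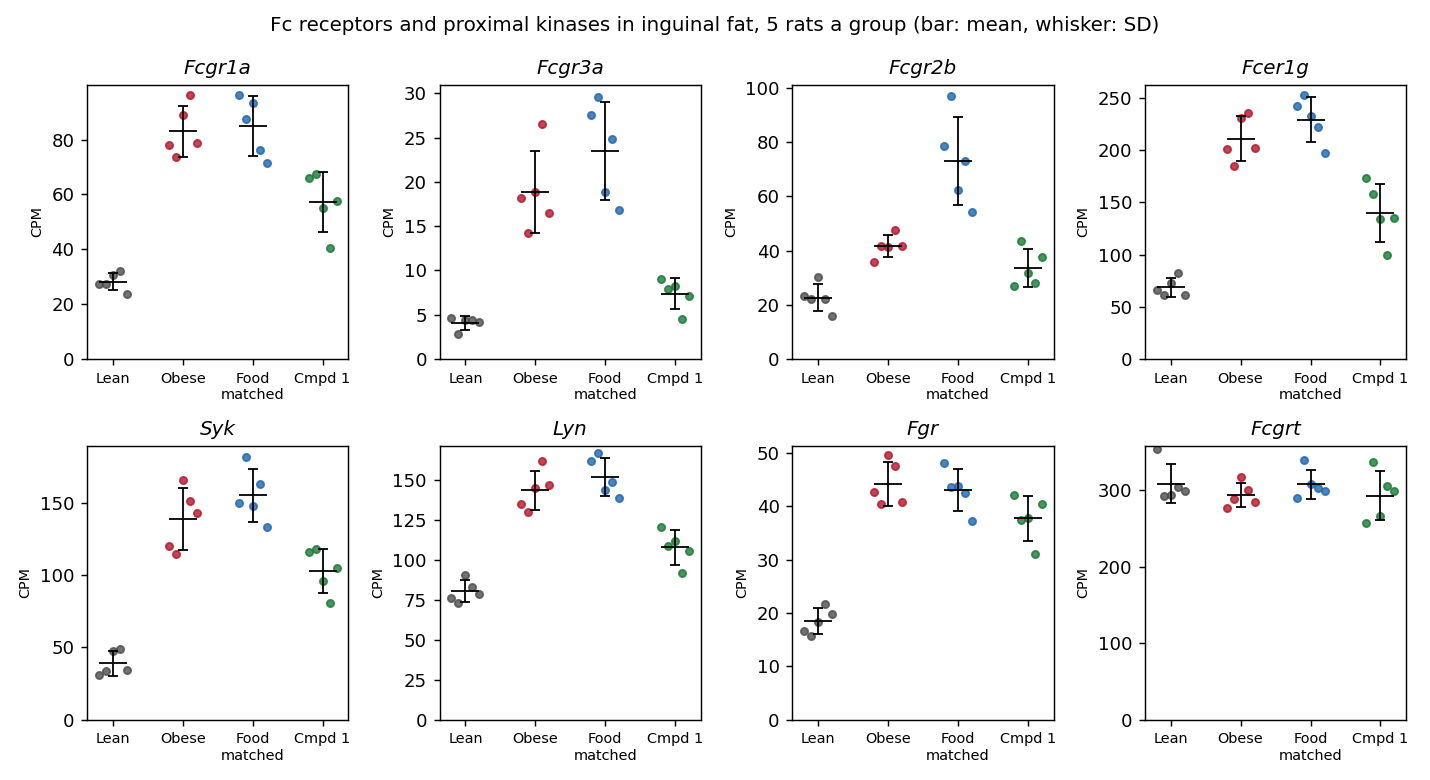
CPM of 8 members in each rat (points), with the group mean (bar) and SD (whisker), 5 rats a group, on axes that start at 0. The plot shows 7 members higher in all Obese than in all Lean rats, 6 of them lower in all Cmpd 1 than in all Food matched rats, and Fcgrt between 257 and 353 CPM throughout.

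**Figure D3:**
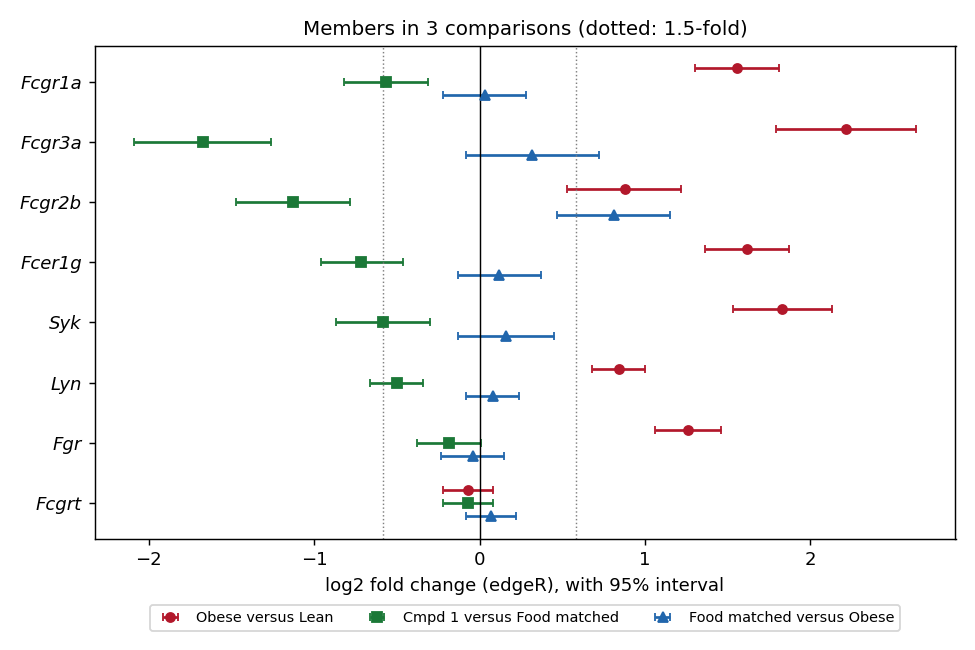
Log2 fold change (x axis) with its 95% interval for 8 members in 3 comparisons, with dotted lines at a fold of 1.5. Fcgr3a has the largest change in the first 2 comparisons, at 2.22 and −1.67, and Fcgr2b alone lies clear of 0 in Food matched versus Obese.

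Fcgr3a, an activating receptor that needs the Fcer1g chain to reach the surface, had the lowest CPM of the members above a few reads (ENSRNOG00000024382, chromosome 13). Among them it moved most in Obese versus Lean and in Cmpd 1 versus Food matched. It was at 4.58, 2.77, 4.36, 4.43 and 4.19 CPM in Lean rats 1 to 5 and at 18.2, 14.2, 18.9, 26.5 and 16.5 CPM in Obese rats. Food matched rats had 27.6, 29.6, 18.8, 24.8 and 16.8 CPM, and Cmpd 1 rats 9.06, 7.86, 8.20, 4.47 and 7.12 CPM. Every Cmpd 1 rat was below every Obese and every Food matched rat, while Cmpd 1 rat 4 lay inside the Lean range. The log2 fold change was 2.22 in Obese versus Lean (SE 0.20, adjusted p = 2.1e-08, edgeR) and −1.67 in Cmpd 1 versus Food matched (SE 0.20, adjusted p = 3.5e-05, edgeR). Against Obese rats the Cmpd 1 group was 2.55-fold lower (adjusted p = 0.00053, edgeR), and against Lean rats still 1.82-fold higher (adjusted p = 0.0018, edgeR). On the log2 scale from Lean at 0 to Obese at 1, the mean of Cmpd 1 rats was at 0.38, the nearest to Lean of the 7 members that rose.

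Fcer1g encodes the common γ chain through which activating Fc receptors signal (ENSRNOG00000024159, chromosome 13, 89601896 to 89606326). Lean rats had 65.7, 61.7, 73.3, 82.0 and 61.1 CPM and Obese rats 201, 185, 231, 236 and 202 CPM. Food matched rats had 242, 253, 233, 222 and 197 CPM, and Cmpd 1 rats 173, 158, 134, 99.3 and 135 CPM. The Cmpd 1 rats thus formed a band of their own, with no rat inside the range of any other group. For this and the other members, the share of all genes in which Cmpd 1 rats lay apart from Obese or Lean rats is not given here. The log2 fold change was 1.62 in Obese versus Lean (SE 0.12, adjusted p = 1.9e-09, edgeR), −0.71 in Cmpd 1 versus Food matched (SE 0.12, adjusted p = 0.00034, edgeR) and −0.59 in Cmpd 1 versus Obese (SE 0.12, adjusted p = 0.0033, edgeR). The last value lies at a fold of 1.51, close to the threshold, and was no longer a DEG when any of Obese rats 3 and 4 or Cmpd 1 rats 3, 4 and 5 was left out, with log2 fold changes of −0.49 to −0.58.

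Fcgr1a, the high-affinity IgG receptor (ENSRNOG00000021199, chromosome 2, 198430530 to 198458041, minus strand), stood close to Fcer1g. Lean rats had 27.3, 27.5, 30.8, 32.0 and 23.7 CPM, and Obese rats 78.0, 73.5, 88.9, 96.3 and 78.7 CPM. Food matched rats had 96.3, 87.4, 93.4, 76.1 and 71.5 CPM, and Cmpd 1 rats 66.1, 67.4, 55.2, 40.4 and 57.5 CPM. Here too the Cmpd 1 rats lay between the Lean and the other obese rats without overlap. The log2 fold change was 1.56 in Obese versus Lean (SE 0.12, adjusted p = 3.5e-09, edgeR) and −0.56 in Cmpd 1 versus Food matched (SE 0.12, adjusted p = 0.0020, edgeR). The second change is 1.48-fold and so no DEG, and it became one, at −0.60 to −0.63, without Cmpd 1 rat 1, Cmpd 1 rat 2, Food matched rat 4 or Food matched rat 5.

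Fcgr2b is named for the inhibitory receptor, within the limit on its gene model given above (ENSRNOG00000046452). Lean rats had 23.3, 22, 30.1, 22.3 and 15.7 CPM and Obese rats 35.8, 41.7, 41.4, 47.5 and 41.9 CPM. Food matched rats had 78.6, 97.1, 62.5, 73.0 and 54.2 CPM, and Cmpd 1 rats 26.9, 43.6, 31.7, 27.9 and 37.5 CPM. Unlike every other member, Fcgr2b was higher in each Food matched rat than in each Obese rat, as were 1.04% of all genes, and 3 of the 5 Cmpd 1 rats lay below the lowest Obese rat. The log2 fold change was 0.88 in Obese versus Lean (SE 0.16, adjusted p = 0.00015, edgeR) and −1.12 in Cmpd 1 versus Food matched (SE 0.16, adjusted p = 0.00015, edgeR). Against Obese rats Cmpd 1 rats stood at −0.31 (SE 0.16, adjusted p = 0.21, edgeR, 95% interval −0.66 to 0.03).

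Food matched versus Obese asks what a period of reduced food intake changes. The paper reports that intake of the dosed rats rose over time and was close to that of Obese rats at termination, when the fat was collected. Food matched rats were given that intake with a lag, so they may no longer have been eating clearly less by then. The values below therefore do not describe rats known to be under restriction at collection. By edgeR no member was a DEG, and 0% of all genes were DEGs higher in Food matched rats, although 1887 genes had a p under 0.05 before adjustment (after it, the lowest was 0.0647). Fcgr2b stood at a log2 fold change of 0.81 (SE 0.16, 95% interval 0.47 to 1.15, adjusted p = 0.068), and it was called by limma-voom (adjusted p = 0.043) and by DESeq2 (adjusted p = 0.0005). The share of all genes that either of these methods called is not given here. With edgeR it was also called without Lean rat 5 (adjusted p = 0.046) or Food matched rat 5 (adjusted p = 0.014), and over all libraries left out in turn the adjusted p ran from 0.014 to 0.22. The other members with enough reads had log2 fold changes of −0.04 (Fgr) to 0.32 (Fcgr3a), each with an interval that spans 0. For Fcgr1a that interval was −0.22 to 0.28, and for Fcer1g −0.13 to 0.37.

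Syk encodes the kinase that docks on the phosphorylated chain (ENSRNOG00000012160, chromosome 17, 12614311 to 12669573, minus strand). Lean rats had 30.7, 33.8, 47.5, 49.3 and 34.3 CPM, and Obese rats 120, 115, 166, 151 and 143 CPM. Food matched rats had 150, 182, 148, 163 and 133 CPM, and Cmpd 1 rats 116, 118, 96.1, 81.0 and 105 CPM. Cmpd 1 and Food matched rats did not overlap, whereas Cmpd 1 rats 1 and 2 lay just above the lowest Obese rat. The log2 fold change was 1.83 in Obese versus Lean (SE 0.14, adjusted p = 2.7e-09, edgeR) and −0.59 in Cmpd 1 versus Food matched (SE 0.14, adjusted p = 0.0039, edgeR). The latter sits on the threshold of 1.5-fold and fell under it, at −0.51 to −0.57, without Food matched rat 2, Food matched rat 4, Cmpd 1 rat 3 or Cmpd 1 rat 4.

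Lyn and Fgr encode Src family kinases that act before Syk, and Lyn also phosphorylates inhibitory motifs. Lyn (ENSRNOG00000008180, chromosome 5, 16526058 to 16642648, plus strand) was at 80.4 ± 6.87 CPM in Lean, 144 ± 12.6 in Obese, 152 ± 11.9 in Food matched and 108 ± 10.6 in Cmpd 1 rats (SD, n = 5 each). Its Cmpd 1 rats, at 91.7 to 121 CPM, lay apart from the Lean maximum of 90.7 and the Obese minimum of 130 CPM. The log2 fold change was 0.84 in Obese versus Lean (SE 0.08, adjusted p = 2.1e-08, edgeR) and −0.50 in Cmpd 1 versus Food matched (SE 0.08, adjusted p = 0.00021, edgeR), which is 1.41-fold and no DEG. Fgr (ENSRNOG00000009912, chromosome 5, 151172206 to 151199745, plus strand) was at 18.5 ± 2.42 CPM in Lean, 44.3 ± 4.14 in Obese, 43.1 ± 3.90 in Food matched and 37.8 ± 4.23 in Cmpd 1 rats. It rose by 1.26 on the log2 scale in Obese versus Lean (SE 0.09, adjusted p = 2e-09, edgeR). Its value in Cmpd 1 versus Food matched was −0.19 (SE 0.09, adjusted p = 0.16, edgeR, 95% interval −0.38 to 0.01), so a decrease of 1.5-fold lies outside the interval.

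Fcgrt, whose product carries IgG and albumin through cells, was the member with the steadiest level (ENSRNOG00000020583, chromosome 1, 101086877 to 101095594, minus strand). It averaged 308 ± 25.7 CPM in Lean, 293 ± 15.6 in Obese, 307 ± 18.6 in Food matched and 293 ± 31.8 in Cmpd 1 rats (SD, n = 5 each), and all groups overlapped. In Obese versus Lean the log2 fold change was −0.07 (SE 0.07, adjusted p = 0.42, edgeR), and over the 6 comparisons of the groups every 95% interval lay within −0.22 and 0.22. Of the genes listed as ligands or partners of these receptors, 5 were tested, of which 2 were lower and 0 higher DEGs in Obese rats. No IgG heavy chain was among those tested, and the row Ighg averaged at most 0.0065 CPM in any group. Alb, albumin, fell by 2.77 on the log2 scale in Obese rats (means of 110 and 16.1 CPM, adjusted p = 7.6e-10, edgeR) and was a higher DEG in Cmpd 1 versus Food matched at 0.83 (adjusted p = 0.0026, edgeR). Crp, C-reactive protein, fell by 0.74 (adjusted p = 0.0026, edgeR). B2m, the light chain that Fcgrt pairs with, averaged 3191 CPM in Lean and 2282 CPM in Obese rats, a log2 fold change of −0.48 (adjusted p = 2.3e-06, edgeR) under the fold threshold. Ighm, the IgM heavy chain, was at 8.65 CPM (Lean), 13.4 (Obese), 10.1 (Food matched) and 5.85 (Cmpd 1). It did not pass in either of these comparisons and was a lower DEG in Cmpd 1 versus Obese (−1.20, adjusted p = 0.016, edgeR). Mzb1, a chaperone of antibody secretion, averaged at most 0.169 CPM in any group and stood at −0.73 in Cmpd 1 versus Food matched (adjusted p = 0.44, edgeR).

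The remaining pairs of groups place the Cmpd 1 and Food matched rats against the ends of the scale. These pairs share samples with the 2 main comparisons and with each other, so they add no independent evidence. In Cmpd 1 versus Obese rats 2 members, Fcgr3a and Fcer1g, were lower DEGs, where 2.8% of all genes were, and 5 members were lower with an adjusted p under 0.05, as 6.93% of all genes were. Against Lean rats 5 members were higher DEGs in Cmpd 1 rats, where 7.47% of all genes were, with folds of 1.82 (Fcgr3a), 2.03 (Fcgr1a), 2.04 (Fcer1g), 2.05 (Fgr) and 2.64 (Syk). In Food matched versus Lean rats 7 members were higher DEGs, where 12.5% of all genes were, from 1.90-fold (Lyn) to 5.80-fold (Fcgr3a). On the scale from Lean at 0 to Obese at 1, Cmpd 1 rats stood at 0.50 for Lyn, 0.62 for Fcer1g, 0.63 for Fcgr2b, 0.65 for Fcgr1a, 0.77 for Syk and 0.82 for Fgr. Food matched rats stood at 0.97 (Fgr) to 1.14 (Fcgr3a), apart from Fcgr2b at 1.88.

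Some rats held the lowest or highest place of their group in most members, but others did not keep 1 place. Of the 8 members with enough reads, Obese rat 2 was the lowest of its group in 6, Food matched rat 5 in 7 and Cmpd 1 rat 4 in 6. Food matched rat 2 was the highest of its group in 6. In contrast, Cmpd 1 rat 1 was the lowest of its group in 2 members and the highest in 4. Lean rat 1 and Food matched rat 1 were each the lowest in 1 and the highest in 2. Cmpd 1 rat 4 is the library with the fewest reads, and its part in the low values was not tested.

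Levels of different genes were compared as RPKM, which is CPM per kb of gene model. In Lean rats the order was Fcgrt (199 RPKM), Fcer1g (109), Lyn (23.4), Fcgr1a (18.7), Syk (7.36), Fgr (7.03), Fcgr2b (6.14) and Fcgr3a (3.03), and the Lean rats of Syk, Fgr and Fcgr2b overlapped. The lowest Lean rat for Lyn and the highest for Fcgr1a were both at 21.2 RPKM. In Obese rats the order became Fcer1g (335 RPKM), Fcgrt (189), Fcgr1a (55.0), Lyn (42), Syk (26.1), Fgr (16.9), Fcgr3a (14.1) and Fcgr2b (11.3). The Fcer1g chain was thus below the transporter Fcgrt in Lean rats and above it in Obese rats. Fcgr3a overlapped both its neighbours Fgr and Fcgr2b in Obese rats. The place of Fcgr2b depends on the length of its gene model, and its row may hold reads of a second receptor. In CPM, Fcgr2b averaged 41.7 and Fcgr3a 18.9 in Obese rats.

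The balance of activating over inhibitory receptors was measured as the log2 ratio of reads within each library, after adding a prior count of 2 that is scaled to library size, and library scaling enters through that prior alone. Since the Fcgr2b row may hold reads of a second receptor, these are ratios of rows. Fcgr3a over Fcgr2b was −2.34, −2.98, −2.78, −2.32 and −1.90 in Lean rats and −0.98, −1.55, −1.13, −0.84 and −1.35 in Obese rats. It was −1.51, −1.72, −1.73, −1.56 and −1.69 in Food matched and −1.57, −2.47, −1.94, −2.63 and −2.39 in Cmpd 1 rats. Every Obese rat was above every Lean and every Cmpd 1 rat, whereas Lean and Cmpd 1 rats overlapped, as did Obese and Food matched rats. Two-sided exact permutation tests over 252 splits were adjusted over 18 tests (3 ratios, 6 pairs of groups), and the smallest raw p they allow is 0.0079. The ratio was 1.30 higher in Obese than Lean rats (adjusted p = 0.029), lower in Cmpd 1 than Obese rats (−1.03, adjusted p = 0.029) and 0.82 higher in Food matched than Lean rats (adjusted p = 0.029), each by exact permutation. In Cmpd 1 versus Food matched rats it differed by −0.56 (raw p = 0.032, adjusted p = 0.063, exact permutation), which did not pass, and passed without Cmpd 1 rat 1 at −0.72 (adjusted p = 0.024). Food matched versus Obese gave −0.47 (adjusted p = 0.036, exact permutation), which did not pass without Food matched rat 2, 3, 4 or 5 (adjusted p = 0.054 to 0.071). Cmpd 1 versus Lean gave 0.26 (adjusted p = 0.46, exact permutation), which did not pass.

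Fcgr1a over Fcgr2b gave another order. The mean log2 ratio was 0.34 in Lean, 0.99 in Obese, 0.24 in Food matched and 0.78 in Cmpd 1 rats (SD 0.22, 0.13, 0.29 and 0.31, n = 5 each). Obese rats were 0.66 above Lean rats and Food matched rats stood at −0.76 against Obese rats, with no overlap in either pair (adjusted p = 0.029 each, exact permutation). Cmpd 1 rats were above Food matched rats by 0.54 (adjusted p = 0.036, exact permutation), the opposite sign to Fcgr3a over Fcgr2b in the same pair of groups. That call did not pass without Cmpd 1 rat 1, 2, 3 or 5 or Food matched rat 2 or 4, with differences of 0.41 to 0.58 and adjusted p of 0.054 to 0.071. Cmpd 1 versus Lean gave 0.44 (adjusted p = 0.036, exact permutation) and did not pass without Lean rat 1, 2, 3 or 4 or Cmpd 1 rat 1, 2, 3 or 5, with differences of 0.31 to 0.48 and adjusted p of 0.054 to 0.1. The remaining pairs, Cmpd 1 versus Obese at −0.22 (adjusted p = 0.25) and Food matched versus Lean at −0.10 (adjusted p = 0.56, exact permutation), did not pass, the former passing without Cmpd 1 rat 1 at −0.35 (adjusted p = 0.036). No ratio of Fcgr2a over Fcgr2b passed, the lowest adjusted p being 0.16.

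**Figure D4:**
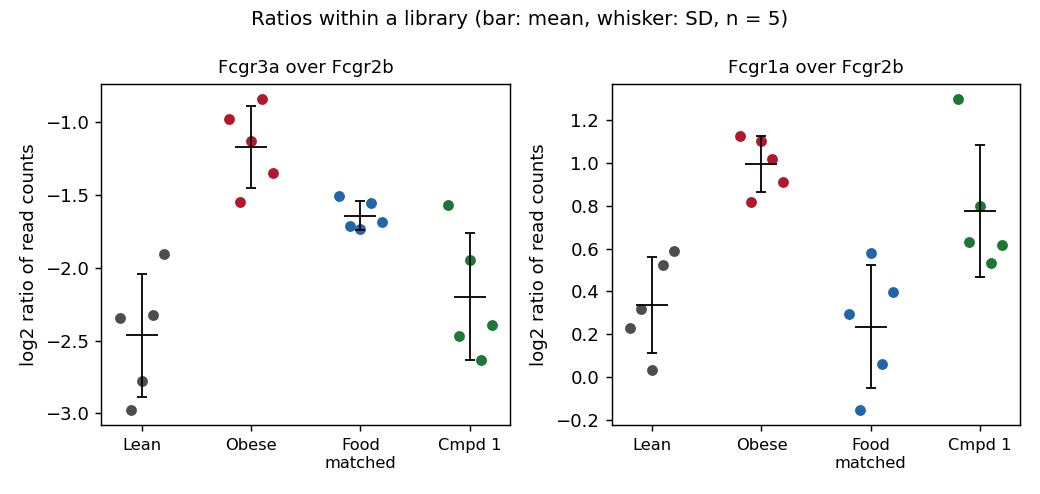
Log2 ratio of read counts of Fcgr3a (left) and Fcgr1a (right) over Fcgr2b in each rat (points), with group means (bars) and SD (whiskers), 5 rats a group. Obese rats are above Lean rats in both panels, and Food matched rats fall to a mean of −1.64 on the left and 0.24 on the right.

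Markers of leukocytes also differed between the groups. The 3 leukocyte markers Ptprc (CD45), Cd53 and Coro1a summed to 127 to 166 CPM in Lean, 379 to 488 in Obese, 371 to 517 in Food matched and 254 to 352 CPM in Cmpd 1 rats. All 3 were higher DEGs in Obese versus Lean, and 2 of the 3 were lower DEGs in Cmpd 1 versus Food matched, where Coro1a stood at −0.04 (adjusted p = 0.83, edgeR). The mean log2 CPM of the 3 was 7.09 in Obese and 7.10 in Food matched rats, the pair in which the log2 fold change of Fcgr2b was 0.81. Relative to the mean log2 CPM of these markers in the same library, Fcgr1a stood at −0.76, −0.72, −0.70 and −0.81 in Lean, Obese, Food matched and Cmpd 1 rats. Its SDs in these groups were 0.12, 0.05, 0.16 and 0.11. The means thus lay closer together than the largest of these SDs, but not closer than the smallest. Fcer1g stood at 0.52, 0.63, 0.74 and 0.47. Fcgr3a stood at −3.56, −2.88, −2.58 and −3.79, so its Cmpd 1 and Lean rats were low, and its Obese and Food matched rats high, on this scale too. Fcgr2b stood at −1.10, −1.71, −0.94 and −1.59, with SDs of 0.295, 0.111, 0.193 and 0.29. Its mean was lowest in the Obese rats, but Obese rats (−1.81 to −1.53) and Cmpd 1 rats (−2.07 to −1.36) overlapped. Lyn stood at 0.75 in Lean rats and between 0.08 and 0.15 in the 3 obese groups, and Fcgrt at 2.69 and between 1.11 and 1.55. These differences are descriptions, and how far the leukocyte content enters each member's change was not tested.

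**Figure D5:**
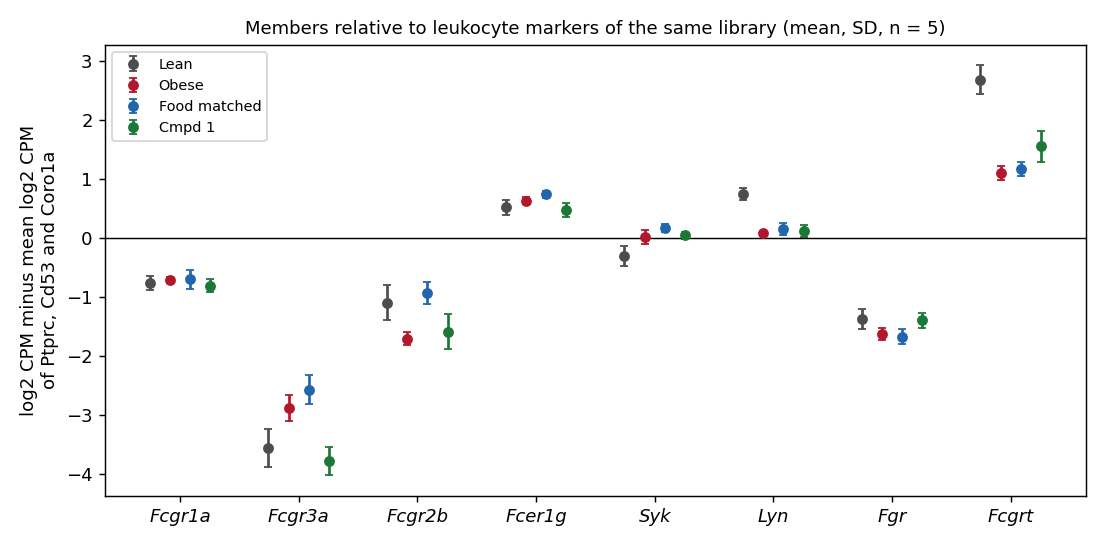
Log2 CPM of 8 members minus the mean log2 CPM of Ptprc, Cd53 and Coro1a in the same library, as group means with SD, 5 rats a group. The group means of Fcgr1a range from −0.81 to −0.70 and those of Fcgr3a from −3.79 to −2.58.

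Other marker lists moved less evenly. Of 10 macrophage markers, 4 were higher and 3 lower DEGs in Obese versus Lean, with a median log2 fold change of 0.31, and 0 were higher and 3 lower in Cmpd 1 versus Food matched, with a median of −0.34. Their sum was 1710 to 1920 CPM in Lean, 1970 to 2400 in Obese, 2230 to 3350 in Food matched and 1670 to 2240 CPM in Cmpd 1 rats. Relative to the mean log2 of these markers, Fcgr1a stood at −2.35 in Lean, −1.10 in Obese, −1.37 in Food matched and −1.5 in Cmpd 1 rats. Of 5 mast cell markers 3 were lower DEGs in Obese versus Lean, and their sum went from 271 to 363 CPM in Lean to 117 to 175 CPM in Obese rats. Of 6 neutrophil markers 1 was a higher DEG and 2 were lower DEGs, and of 4 NK cell and 4 B cell markers 0 were DEGs in Obese versus Lean. The marker counts here are of DEGs, so changes under the fold threshold are not in them. Of 5 T cell markers 1 was higher, Cd4, which rat macrophages also carry. Of 4 endothelial markers 0 were higher and 1 lower, of 6 adipocyte markers 1 was higher and 3 lower, of 4 fibroblast markers 1 was higher and 2 lower, and all 5 muscle markers were lower. Between Cmpd 1 and Food matched rats, 1 neutrophil and 1 NK cell marker were higher in Cmpd 1 rats, 1 T cell marker was lower, and no mast cell, B cell, endothelial, adipocyte, fibroblast or muscle marker was a DEG. The part of any of these cell types in the members' values was not tested. The 7 member DEGs in Obese versus Lean were also 7 without Lean rats 1 and 2, the libraries with muscle transcripts.

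Of the other Fc receptor genes, 11 were tested, with 3 higher and 3 lower DEGs in Obese versus Lean and 0 higher and 3 lower in Cmpd 1 versus Food matched. The higher ones were Fcrl1, a receptor-like protein of B cells (0.339 to 4.07 CPM in the group means, log2 fold change 3.61, adjusted p = 4.6e-07, edgeR), Fcrlb (3.47, adjusted p = 3.6e-06, edgeR) and Fcrl5, and all 3 were scarce, with a mean of at most 4.85 CPM in any group. The lower ones were the IgE receptor genes Fcer1a (−1.01, adjusted p = 0.0069, edgeR), Ms4a2 (−1.31, adjusted p = 8.3e-05, edgeR) and Fcer2. Of these, Fcer2 was near the floor, at means of 0.08 CPM in Lean and 0.017 CPM in Obese rats (adjusted p = 0.045, edgeR). In Cmpd 1 versus Food matched, Fcrl1 (−1.06), Fcrlb (−1.12) and Fcrla (−0.75) were lower, with adjusted p of 0.037, 0.033 and 0.049 (edgeR). Fcrl5, Fcer1a, Fcer2 and Fcrla were named after their values were seen. Trim21, the cytosolic antibody receptor, was at 34.8 CPM (Lean), 36.8 (Obese), 36.5 (Food matched) and 31.5 (Cmpd 1) and was no DEG in either comparison, although its log2 fold change of −0.21 in Cmpd 1 versus Food matched had an adjusted p of 0.013 (edgeR).

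Of 8 other Src and Syk family kinases, 3 were higher DEGs in Obese versus Lean and 1 was lower in Cmpd 1 versus Food matched. Lck and Zap70, kinases of T cells, were among the higher DEGs, at 0.87 and 0.78 on the log2 scale, Zap70 being named after its values were seen. Fyn, Src and Csk, the kinase that holds Src kinases back, were no DEGs in either comparison. Their log2 fold changes were 0.33, 0.51 and 0.49 in the first, all with an adjusted p under the threshold, and Fyn stood at −0.45 in the second (adjusted p = 0.0010, edgeR).

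Of 9 genes of other chains with such motifs, 3 were higher DEGs in Obese versus Lean and 1 was lower in Cmpd 1 versus Food matched. Tyrobp (DAP12), a chain of myeloid and NK receptors, was at 50.5 CPM (Lean), 145 (Obese), 164 (Food matched) and 115 (Cmpd 1), with log2 fold changes of 1.52 and −0.51, the second under the fold threshold (adjusted p = 0.0026, edgeR). Clec7a (dectin-1), a glucan receptor that signals to Syk, was at 7.55, 60.9, 81.0 and 35.2 CPM, with 3.01 (adjusted p = 2.4e-09, edgeR) and −1.20 (adjusted p = 0.00052, edgeR). Cd3e of the T cell receptor was at 1.79, 2.78, 2.46 and 2.76 CPM, with 0.63 (adjusted p = 0.015, edgeR) and 0.16. Cd3d of the same receptor stood at 0.42 in Cmpd 1 versus Food matched (adjusted p = 0.38, edgeR).

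Of 27 adaptors and effectors that act after Syk, 20 were higher DEGs in Obese versus Lean and none was lower, with a median log2 fold change of 1.00, and 5 were lower in Cmpd 1 versus Food matched, with a median of −0.45. In the first comparison the smallest adjusted p belonged to Pik3cd, a PI3-kinase subunit (1.81), Blnk, an adaptor (2.14), and Pik3ap1 (1.51). In the second it belonged to Prkcb, Nckap1l and Pik3r5. Pik3r5, a PI3-kinase subunit, was at 11.8 CPM (Lean), 43.6 (Obese), 55.6 (Food matched) and 29.4 (Cmpd 1) (−0.92, adjusted p = 0.00046, edgeR), and Nckap1l, a part of the WAVE complex that drives actin in phagocytosis, was at 44.1, 124, 132 and 83.8 CPM (−0.65, adjusted p = 0.00027, edgeR). Prkcb encodes PKCβ, a target of Cmpd 1, and was at 9.07, 16.6, 18.9 and 12.7 CPM (−0.57, adjusted p = 0.00021, edgeR), under the fold threshold, after a higher DEG of 0.87 in Obese versus Lean. The other three lower DEGs, named after their values were seen, were the adaptor Lat2 (−0.64), the exchange factor Vav1 (−0.59) and the kinase Btk (−0.60).

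Of 14 genes that restrain these signals, 10 were higher DEGs in Obese versus Lean and none was lower, with a median log2 fold change of 0.84, and 3 were lower in Cmpd 1 versus Food matched, with a median of −0.36. Lilrb4, an inhibitory receptor, was at 7.43 CPM (Lean), 41.8 (Obese), 49.9 (Food matched) and 28.7 (Cmpd 1), with log2 fold changes of 2.49 (adjusted p = 7.6e-10, edgeR) and −0.80 (adjusted p = 0.0012, edgeR). Inpp5d, which encodes SHIP-1, and the adaptor Dok3 rose by 1.36 and 1.47 in Obese rats and stood at −0.43 and −0.45 in Cmpd 1 versus Food matched, where they were no DEGs. Sla, an adaptor that lowers receptor levels, was at 15, 55.0, 67.3 and 33.1 CPM and fell by 1.02 in Cmpd 1 rats (adjusted p = 0.00016, edgeR). Cd300a, named after its values were seen, fell by 0.78, and the ligase Cblb, at −0.53, was no DEG. Genes of both roles, passing the signal on and stopping it, were thus higher in Obese rats.

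The genes most like each member were found by the root mean square difference of mean-centred log2 CPM over all 20 libraries, among 11966 other genes with a symbol and a mean of at least 1 CPM. The libraries share their groups, so likeness takes in the group means and not the rats alone. Fcgr1a was nearest to Nckap1l (0.09) and then to Fcer1g (0.10), and Fcer1g to Nckap1l (0.09) and then to Fcgr1a. Syk was nearest to Arhgap25 and Pik3cd (0.10 each), Lyn to Actr3 and Parvb (0.08 and 0.09), and Fgr to Zfp710 and Fxyd5 (0.11 and 0.12). The measure is not scaled to the size of a gene's own changes, so large changes and few reads raise it. Distances of different members therefore cannot be ranked against each other. Fcgr3a, the member that moved most in Obese versus Lean, was nearest to Pde6a at 0.27 and to Ptger2 at 0.31. Fcgr2b was nearest to Mrc1, the mannose receptor, at 0.23 and to Hmox1 at 0.25, and Fcgrt to Fam98c and Eef2 (0.07 and 0.08). Fcgr3a and Fcgr2b differed from each other by 0.59 and from Fcer1g by 0.44 and 0.38, within the same limit.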

How the data were processed

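RNA of inguinal fat from 20 rats, 5 a group, was sequenced by the authors as stranded mRNA libraries. The authors deposited raw read counts per Ensembl gene, with the gene model length in bases, after mapping with STAR and counting unique reads with featureCounts. Their methods name the rat build rn6, whereas the submitters' processing notes name GRCh38, STAR 2.5.2 and Subread 1.5.1. Whether reads were counted by strand is not given in the sources used here.

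Counts were analysed in R 4.3.3 with edgeR 4.0.16 (TMM scaling, quasi-likelihood test, 1 model of the 4 groups) on the 17653 of 32545 genes with no reads in fewer than 10 of the 20 libraries, and p-values were Benjamini-Hochberg adjusted over them. limma-voom (limma 3.58.1) and DESeq2 1.42.0 were alternatives, beside other scalings, filters and samples. The scripts were tested on simulated data. The members and gene lists were chosen with earlier results of these data known. Besides the 9 members, the text names from each list the 3 genes with the smallest adjusted p in Obese versus Lean and in Cmpd 1 versus Food matched, DEGs opposite to most of their list, and the 2 genes most like each member; others are marked. The symbols Fcmr, Igha, IgG-2a, Jchain, Grb2, Pirb, Gzmb and Pecam1 had no row here. Rat numbers in the titles did not pair the samples. Libraries stand for separate rats by their titles, so p-values measure the spread between rats. Some genes that this rule would name are not reported here.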

Additional observations from a re-analysis of the deposited data

Results flagged for a closer look

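For 2 of 40 sets of 5 rats (a member in a group, or a ratio in a group) 1 rat stood apart from the others by Dixon's criterion, which flags about 1 in 20 by chance. Fcgr3a was at 2.77 CPM in Lean rat 2, against 4.19 to 4.58 CPM in the other Lean rats. Fcgrt was at 353 CPM in Lean rat 1, against 292 to 304 CPM in the others. Lean rats 1 and 2 are the libraries with skeletal muscle transcripts, whose part in these values was not tested.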

How the results depend on the processing

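The counts of member DEGs in Obese versus Lean, Cmpd 1 versus Lean and Food matched versus Lean stayed within 1.5 times the main count under every alternative. In Cmpd 1 versus Food matched the count of 4 fell to 1 with a test against a fold of 1.5 (glmTreat). In Food matched versus Obese the count of 0 became 1 with limma-voom and 1 with DESeq2, and ran from 0 to 1 with 1 library left out. The shares of all genes called under the alternatives are not given here, so the member counts cannot be set against them. In Cmpd 1 versus Obese the count of 2 became 1 with library size alone, 5 with no fold threshold and 0 with glmTreat, and ran from 1 to 3 with 1 library left out. With 1 library left out, the ratio of Fcgr3a over Fcgr2b ranged from −0.72 to −0.45 in Cmpd 1 versus Food matched and from −0.57 to −0.39 in Food matched versus Obese. The ratio of Fcgr1a over Fcgr2b ranged from 0.41 to 0.63 in Cmpd 1 versus Food matched, from −0.35 to −0.16 in Cmpd 1 versus Obese and from 0.31 to 0.50 in Cmpd 1 versus Lean. The sign of values near 0 turned, with no call in any: Fcgrt in Cmpd 1 versus Obese was 0.0018 with at least 1 CPM in 5 libraries, 0.055 with library size alone and 0.0060 with the 2 groups alone. Fcgrt in Food matched versus Lean was 0.0070 with any read, 0.0023 with library size alone, 0.0052 with the 2 groups alone and 0.042 without Lean rats 1 and 2. With 1 library left out, Fcgrt ranged from −0.056 to 0.041 in the former pair and from −0.040 to 0.051 in the latter, and Fcgr1a and Fgr in Food matched versus Obese ranged from −0.017 to 0.091 and from −0.083 to 0.0075. With the rat number as a replicate block the counts were 7, 3, 0, 2, 5 and 7 in the 6 pairs of groups, and 3 of 20 rats correlated best with their own number, so the numbers were not taken as pairs. The exact sign-flip test of the ratios over 5 pairs cannot go below p = 0.0625. Fcgr2a was left out of the alternatives, since 0 to 9 reads a library can show no difference. The cause of each change was not tested.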
